A study of Rattus norvegicus with 6 samples.

Results

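The 4 genes described here are Hif1a, Vegfa, Slc2a1 and Ldha, which were chosen by name and Ensembl identifier (ENSRNOG00000008292, ENSRNOG00000019598, ENSRNOG00000007284 and ENSRNOG00000013009), with no use of their values. All 4 identifiers were among the 20159 in the deposited table. The identifier and symbol of each gene came together with that choice, and no table used here checks the pairing. Polyadenylated RNA was sequenced from 6 rat libraries. 3 were labelled primary keratinocyte progenitors, the dividing cells of the epidermal epithelium, and 3 were labelled limbal niche, which names the cells that surround the epithelial stem cells at the corneal rim. The series concerns the conversion of keratinocyte progenitors into corneal epithelial cells. Its design describes progenitors kept on Matrigel in keratinocyte medium alone, or in either of 2 media mixed with conditioned medium from limbal niche cells. The labels tie no library to one of these cultures, give epidermis as the tissue of every library, and state no strain, age or oxygen level, so the second group is called limbal niche only because it is labelled so. Marker genes of keratinocytes, corneal epithelium, stroma or blood cells were not examined, since 0 of the identifiers were paired with a symbol by the reference tables, and the labels were therefore not checked against markers.

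Hif1a encodes the oxygen-regulated subunit of the transcription factor HIF-1. When oxygen is present, prolyl hydroxylases mark the HIF-1α protein, the VHL ubiquitin ligase binds it and it is degraded; at low oxygen it accumulates, pairs with ARNT and binds DNA at hypoxia response elements, so that its activity is set largely at the level of the protein. Vegfa encodes a secreted growth factor for blood vessels, Slc2a1 the glucose transporter GLUT1, and Ldha the lactate dehydrogenase subunit that favours conversion of pyruvate to lactate. All 3 are textbook targets of HIF-1, and each also responds to other signals, such as growth factors and MYC. The cornea is free of blood vessels, and epidermal and corneal epithelia take up glucose largely through GLUT1.

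The promoters of the 3 targets and Hif1a were searched for the core letters of the hypoxia response element. Binding of HIF-1 was not measured. The 250 bases before the start of each gene were taken from RefSeq (build GRCr8, plus strand for all 4), with chr1:106507842-106508091 for Ldha, chr5:138002272-138002521 for Slc2a1, chr6:98359648-98359897 for Hif1a and chr9:22452604-22452853 for Vegfa. The deposited table names no build, so these positions belong to the reference alone. Capitals mark each ACGTG and GCGTG, the core of the hypoxia response element, read on both strands; a CACGTG holds ACGTG on both strands and was counted as 2 matches.

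Ldha: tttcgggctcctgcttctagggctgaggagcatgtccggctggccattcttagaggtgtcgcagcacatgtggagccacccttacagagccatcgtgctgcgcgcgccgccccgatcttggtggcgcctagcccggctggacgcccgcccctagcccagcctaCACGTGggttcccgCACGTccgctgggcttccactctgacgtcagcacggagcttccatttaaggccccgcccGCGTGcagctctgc
Slc2a1: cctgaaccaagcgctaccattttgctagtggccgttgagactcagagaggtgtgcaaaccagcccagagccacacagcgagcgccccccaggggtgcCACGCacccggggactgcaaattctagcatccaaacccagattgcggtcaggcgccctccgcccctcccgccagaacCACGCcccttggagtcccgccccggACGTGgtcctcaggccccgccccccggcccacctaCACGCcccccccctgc
Hif1a: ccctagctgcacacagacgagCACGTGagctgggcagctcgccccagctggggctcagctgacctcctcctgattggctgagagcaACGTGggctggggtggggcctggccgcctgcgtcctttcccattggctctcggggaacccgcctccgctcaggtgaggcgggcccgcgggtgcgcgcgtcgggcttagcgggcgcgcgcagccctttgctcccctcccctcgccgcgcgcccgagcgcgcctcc
Vegfa: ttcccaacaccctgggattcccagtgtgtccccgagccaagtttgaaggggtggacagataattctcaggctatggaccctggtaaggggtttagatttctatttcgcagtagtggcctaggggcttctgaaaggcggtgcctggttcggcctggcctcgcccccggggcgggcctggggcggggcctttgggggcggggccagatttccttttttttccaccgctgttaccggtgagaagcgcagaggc

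Ldha had 4 matches in 3 separate stretches, namely, by the most upstream base, 1 CACGTG at 87 bases before the start, 1 ACGTG on the minus strand at 73 bases and 1 GCGTG at 14 bases. Slc2a1 also had 4 matches, of which the only ACGTG lay 51 bases before the start and the other 3 were GCGTG on the minus strand at 153, 76 and 16 bases. Hif1a had 3 matches in 2 stretches, a CACGTG and an ACGTG. Vegfa had 0 matches in this window and 0 before the second start that RefSeq lists for it, which says only that these letters are not in these windows. Over 33469 listed promoters of the same length, 36.7% held at least 1 match, 6.21% held at least 3 and 2.44% held at least 4. The window of Hif1a was 73.6% G and C, that of Slc2a1 68.4%, that of Ldha 66.4% and that of Vegfa 60.4%.

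Expression is given in FPKM, reads scaled by gene length and by the library's total, as deposited. The libraries held 17678076 to 18237668 reads each, recovered from the table's exact values. The libraries did not sort by label over all genes. Keratinocyte progenitors 2 and 3 were nearly alike, with a correlation of 0.995 across 12085 genes (mean of at least 1 FPKM). The genes that enter such a correlation are not independent replicates. Keratinocyte progenitor 1 correlated more closely with limbal niche 2 (0.962) and limbal niche 3 (0.968) than with keratinocyte progenitor 2 (0.927) or 3 (0.923). Limbal niche 1 correlated at 0.887 and 0.883 with limbal niche 2 and 3, against 0.925 and 0.931 with keratinocyte progenitors 2 and 3. Both libraries numbered 1 thus correlated more closely with 2 libraries of the other label than with either of their own; whether their labels are right was not tested, and every group mean and fold change below takes the labels as given. Reads of keratinocyte progenitors 2 and 3 differed on average by more than sampling alone (mean chi-square 4.35 per gene, against 78.1 to 337 in the other pairs). The median was 0.874, against 7.95 to 29.6 in the other pairs, so some genes raised the mean more than others. Whether the typical gene of keratinocyte progenitors 2 and 3 differed by more than sampling was not tested. Neither the mean nor the median can show whether the 2 libraries are independent, which was not tested. They were kept as 2 samples because their titles number them so. The titles call the libraries biological replicates and say no more of their origin. The p-values below therefore weigh a group difference against the spread between these libraries, which may be technical in part.

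Hif1a, the regulator, was the least abundant of the 4 on average and varied the least. Its level was 40.4, 63.9 and 73.5 FPKM in keratinocyte progenitors 1, 2 and 3, and 37.9, 26.7 and 44.3 FPKM in limbal niche 1, 2 and 3. Keratinocyte progenitors 2 and 3 had the 2 highest values, and the groups overlapped because keratinocyte progenitor 1 lay below limbal niche 3. The lowest value rests on 1944 reads, and its 95% Poisson interval, which covers counting error only, runs from 25.6 to 28.0 FPKM. Limbal niche 1 and keratinocyte progenitor 1, neighbours in the order of levels, had overlapping counting intervals, and every other pair of neighbours was separated beyond counting error. In RNA from bulk cells, fewer cells that express a gene and less RNA per cell cannot be told apart, which holds for each value here.

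Vegfa, the secreted ligand, fell into 2 separate levels. It stood at 32.1, 158 and 158 FPKM in keratinocyte progenitors 1, 2 and 3. In limbal niche 1, 2 and 3 it stood at 38.0, 30.9 and 39.0 FPKM. Keratinocyte progenitors 2 and 3 lay at least 4.06-fold above every other library, and the other 4 libraries lay within 1.26-fold of each other. Keratinocyte progenitor 1, with the same label as the 2 high libraries, was the second lowest of the 6. Limbal niche 2 and keratinocyte progenitor 1 had overlapping counting intervals, as did limbal niche 1 and 3. Between the 2 high libraries the ratio was 1.00 (exact binomial 95% interval 0.973 to 1.03), so no difference was detectable at this depth. Vegfa was 483rd and 486th by FPKM among the genes of the 2 high libraries, and between 2304th and 2842nd in the rest.

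Slc2a1, the glucose transporter, had its 2 highest values in the same libraries but did not split into 2 levels elsewhere. The values were 213, 883 and 892 FPKM in keratinocyte progenitors 1, 2 and 3. They were 243, 424 and 562 FPKM in limbal niche 1, 2 and 3. Here the 2 libraries numbered 1 were the lowest and limbal niche 2 and 3 were intermediate. The lowest and the highest library, 4.18-fold apart, both carried the keratinocyte progenitor label. Only keratinocyte progenitors 2 and 3 were neighbours within counting error (ratio 1.01, exact binomial 95% interval 0.997 to 1.02). Slc2a1 ranked between 87th and 392nd of all genes by FPKM.

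Ldha, the lactate dehydrogenase subunit, ran the other way. It measured 1098, 574 and 548 FPKM in keratinocyte progenitors 1, 2 and 3, and 634, 2064 and 1638 FPKM in limbal niche 1, 2 and 3. The 2 libraries with the most Hif1a, Vegfa and Slc2a1 had the least Ldha. Limbal niche 2, which had the least Hif1a and the least Vegfa, had the most Ldha, with 60216 reads or 0.330% of all its reads. Limbal niche 1 lay beside keratinocyte progenitors 2 and 3, and keratinocyte progenitor 1 lay between it and the other 2 limbal niche libraries. No neighbours in this order had overlapping counting intervals, and Ldha ranked between 53rd and 145th of all genes.

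**Figure D1:**
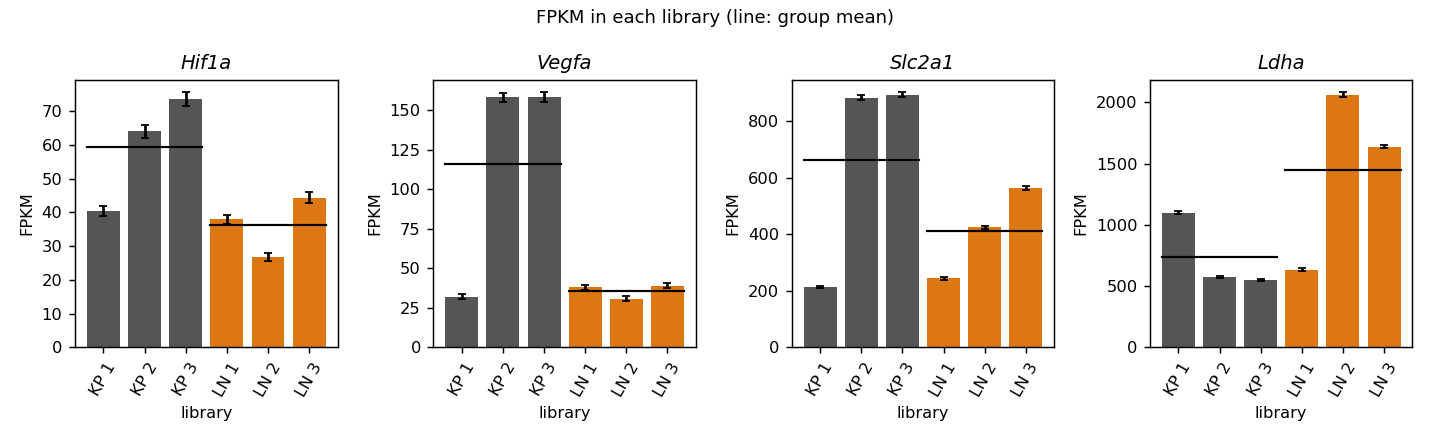
FPKM (vertical axis, from 0) of each gene in the 6 libraries, grey for keratinocyte progenitors (KP) and orange for limbal niche (LN). Error bars are 95% Poisson intervals of the reads and black lines are group means; Hif1a, Vegfa and Slc2a1 are highest in KP 2 and KP 3, where Ldha is lowest.

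Over the libraries, Hif1a, Vegfa and Slc2a1 tended to be high and low together and Ldha went against them. The 15 pairs of libraries are all drawn from the same 6 libraries, so they are not independent observations. Of these pairs, Hif1a and Vegfa differed in the same direction in 14, Vegfa and Slc2a1 in 13, and Hif1a and Slc2a1 in 12. Ldha differed in the same direction as Hif1a in 3 of the 15 pairs, as Vegfa in 2 and as Slc2a1 in 4. How often other pairs of genes reach such counts was not examined. These counts include pairs of libraries that a gene does not separate beyond counting error (overlapping 95% Poisson intervals), such as keratinocyte progenitors 2 and 3 for Vegfa and Slc2a1. Over the pairs that both genes do separate, the same direction was seen in 11 of 11 for Hif1a and Vegfa, 11 of 12 for Vegfa and Slc2a1 and 11 of 13 for Hif1a and Slc2a1. With Ldha it was seen in 2 of 14 for Hif1a, 1 of 12 for Vegfa and 4 of 14 for Slc2a1. The 3 HIF targets therefore did not vary as 1 group: Vegfa and Slc2a1 mostly went together and Ldha mostly opposite. No correlation coefficient or p-value is given for these pairs of genes. Vegfa falls into 2 clusters, and a coefficient over the 6 libraries that includes Vegfa would mainly restate that gap. For the pairs without Vegfa, the reason is that keratinocyte progenitors 2 and 3 are not clearly independent.

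Much of this pattern rests on keratinocyte progenitors 2 and 3. Among the 6 pairs that the other 4 libraries form, Hif1a and Vegfa differed in the same direction in 5 and Vegfa and Slc2a1 in 4. Hif1a and Slc2a1 did so in 3, which favours neither direction. Slc2a1 and Ldha differed in the same direction in 4 of these 6 pairs, so the opposition of transporter and dehydrogenase was not seen there. Ldha differed in the same direction as Hif1a in 3 and as Vegfa in 2 of the 6. Counting error leaves few of these pairs with a direction in both genes. They numbered 3 for Hif1a and Vegfa, all in the same direction, and 4 for Vegfa and Slc2a1, of which 3 were. The direction was the same in 3 of 5 for Hif1a and Slc2a1, 2 of 5 for Hif1a and Ldha, 1 of 4 for Vegfa and Ldha and 4 of 6 for Slc2a1 and Ldha. With keratinocyte progenitors 2 and 3 averaged and counted as 1 library, the counts of the same direction were 9 of 10 for Hif1a and Vegfa, 8 for Vegfa and Slc2a1 and 4 for Slc2a1 and Ldha.

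**Figure D2:**
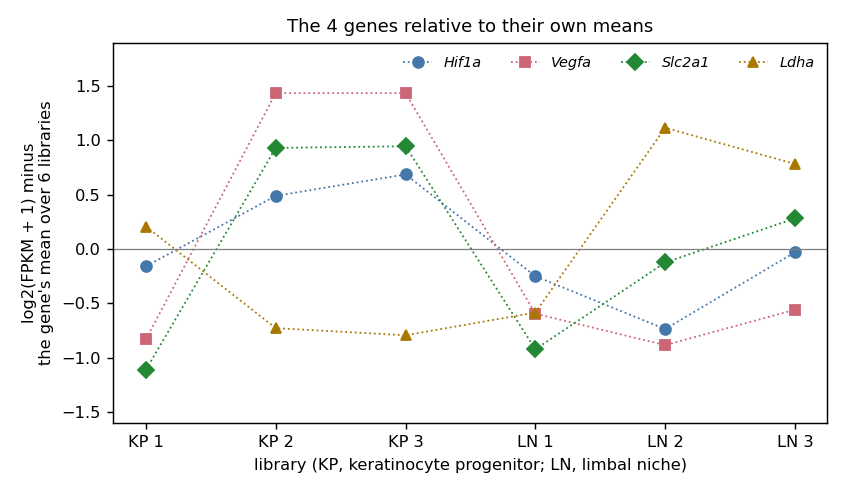
Level of each gene on the log2(FPKM + 1) scale minus its own mean over the 6 libraries (vertical axis), by library (horizontal axis; the dotted lines only join points of a gene). Vegfa, Slc2a1 and Hif1a lie above 0 in KP 2 and KP 3 and Ldha below 0, while in LN 2 Ldha is the only one above 0.

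Ratios of FPKM between genes of the same library do not depend on how libraries are scaled. The ratio of Ldha to Slc2a1 was 5.15, 0.650 and 0.615 in keratinocyte progenitors 1, 2 and 3, and 2.61, 4.86 and 2.91 in limbal niche 1, 2 and 3. Slc2a1 thus exceeded Ldha in keratinocyte progenitors 2 and 3 alone, and the ratio spanned 8.37-fold over the 6 libraries. The ratio of Slc2a1 to Vegfa was 6.66, 5.58 and 5.63 in keratinocyte progenitors 1, 2 and 3 and 6.41 in limbal niche 1. It was 13.7 and 14.4 in limbal niche 2 and 3. In the first 4 of these libraries the 2 genes kept a nearly fixed proportion although their levels differed more than 4-fold, and in limbal niche 2 and 3 there was more Slc2a1 per Vegfa. The ratio of Vegfa to Hif1a was 2.48 and 2.15 in keratinocyte progenitors 2 and 3, and 0.793 to 1.15 in the other libraries. The ratio of Ldha to Hif1a ranged from 7.46 in keratinocyte progenitor 3 to 77.1 in limbal niche 2.

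**Figure D3:**
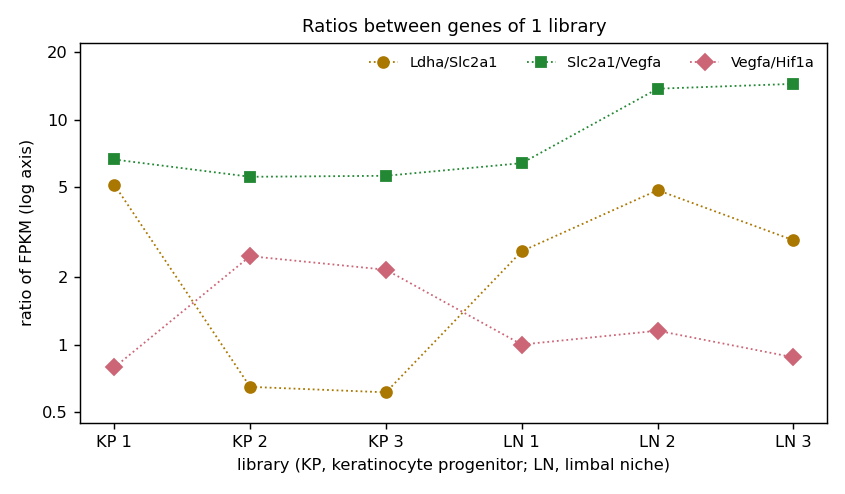
Ratio of the FPKM of 2 genes within each library (vertical axis, log scale), for Ldha over Slc2a1, Slc2a1 over Vegfa and Vegfa over Hif1a; dotted lines only join points of a ratio. Ldha over Slc2a1 is below 1 only in KP 2 and KP 3, and Slc2a1 over Vegfa is 13.7 and 14.4 in LN 2 and LN 3 against 5.58 to 6.66 elsewhere.

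Set against all genes, Hif1a, Vegfa and Slc2a1 were nearer to each other than most genes were. Ldha was farther from Hif1a and Vegfa than most genes were. Between Ldha and Slc2a1 the distance was less marked, and from the side of Ldha it was near the middle of all genes. Likeness was measured by Pearson's r of log2(FPKM + 1) over the 6 libraries and only ranks genes, with no test. It rests on the same 6 libraries as the counts above. For Vegfa it mainly ranks genes by how they set keratinocyte progenitors 2 and 3 apart from the rest. This does not hold for Ldha, whose log2 deviation from its own mean was -0.58 in limbal niche 1, beside -0.73 and -0.79 in keratinocyte progenitors 2 and 3. Limbal niche 2 and 3 were the other extreme for Ldha (1.12 and 0.78). Of the other 12084 genes, 3.98% were more like Vegfa than Hif1a was, 9.67% were more like it than Slc2a1 was and 88.5% more than Ldha was. From the side of Hif1a, 5.21% of genes were more alike than Vegfa, 22.8% more than Slc2a1 and 91.3% more than Ldha. For Slc2a1, 3.81% of genes were more alike than Vegfa, 10.5% more than Hif1a and 72.1% more than Ldha. For Ldha, 80.6% of genes were more alike than Hif1a, 79.1% more than Vegfa and 53.3% more than Slc2a1. Many genes were thus closer to each member than the other members were. In the 6635 other genes averaging 10 FPKM or more, the identifier most like Vegfa was ENSRNOG00000058588 (likeness 0.998) and the one most like Ldha was ENSRNOG00000032134 (likeness 0.996); neither is paired with a symbol here.

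Replicates of a label differed widely in Slc2a1 and Ldha, and in Vegfa among keratinocyte progenitors only. Among keratinocyte progenitors the highest library exceeded the lowest 4.94-fold for Vegfa, 4.18-fold for Slc2a1, 2.00-fold for Ldha and 1.82-fold for Hif1a. Among limbal niche libraries these spans were 1.26-fold for Vegfa, 2.31-fold for Slc2a1, 3.25-fold for Ldha and 1.66-fold for Hif1a. On the log2(FPKM + 1) scale, the SD between libraries of a group was 0.94 for Slc2a1, 0.93 for Vegfa, 0.75 for Ldha and 0.40 for Hif1a, and the median over the 12085 genes tested was 0.31. The SD was smaller than that of Slc2a1 in 93.6% of genes, than that of Vegfa in 93.4%, than that of Ldha in 89.1% and than that of Hif1a in 66.1%. In the 6636 genes averaging 10 FPKM or more, the shares were 93.8%, 93.6%, 90.0% and 70.3%. The nearly alike keratinocyte progenitors 2 and 3 enter this SD for every gene.

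**Figure D4:**
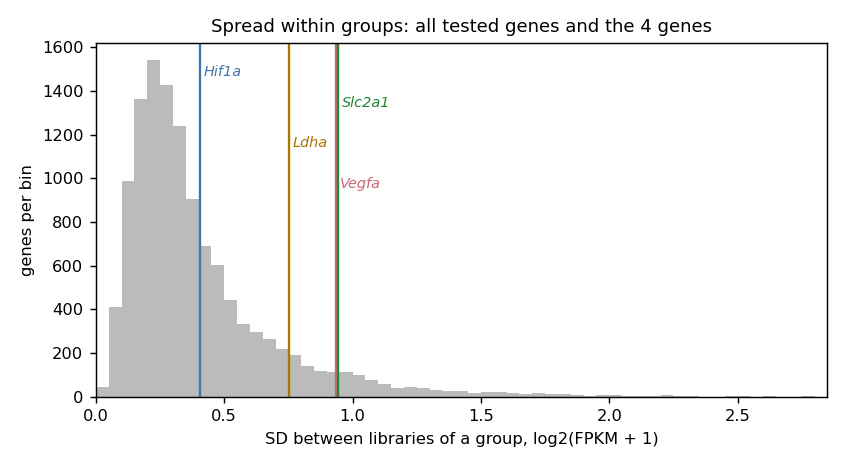
Number of genes (vertical axis) by the SD between libraries of a group on the log2(FPKM + 1) scale (horizontal axis) for the 12085 genes tested, with a vertical line for each of the 4 genes. Vegfa and Slc2a1, at 0.93 and 0.94, lie on nearly the same line in the upper tail.

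None of the 4 genes passed the test of a difference between limbal niche and keratinocyte progenitors, and none of the 4 had groups without overlap. Of all 12085 genes tested, 0% were called (limma on log2(FPKM + 1), adjusted p under 0.05 by Benjamini-Hochberg, 3 libraries per group), 5.85% (707 genes) had an unadjusted p under 0.05, and 11.9% had groups that did not overlap. Limma-voom on the recovered reads also called 0 genes. The exact permutation test of a single gene cannot go below p = 0.1 with 3 libraries against 3.

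Vegfa had the largest log2 fold change of the 4. Its mean was 116 ± 72.9 FPKM under the keratinocyte progenitor label and 35.9 ± 4.40 FPKM under the limbal niche label (SD, n = 3 for both). The log2 fold change was -1.36 (95% interval -2.81 to 0.09; limma adjusted p = 0.793; exact two-sided permutation p = 0.3). Limbal niche was lower than keratinocyte progenitors 2 and 3 in all 3 libraries, and lower than keratinocyte progenitor 1 in 1 of 3, by less than counting error. Without keratinocyte progenitor 1 the log2 fold change was -2.12 (limma adjusted p = 0.134), and without keratinocyte progenitor 2 or 3 it was -0.98 (limma adjusted p = 1.00 in both fits).

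The mean of Hif1a was 59.3 ± 17.0 FPKM for keratinocyte progenitors and 36.3 ± 8.88 FPKM for limbal niche (SD, n = 3 for both). The log2 fold change was -0.68 (95% interval -1.37 to 0.02; limma adjusted p = 0.793; exact two-sided permutation p = 0.2). For Slc2a1 the means were 663 ± 389 FPKM and 410 ± 160 FPKM in the same order (SD, n = 3 for both). Its log2 fold change was -0.51 (95% interval -1.98 to 0.96; limma adjusted p = 0.869; exact two-sided permutation p = 0.6), and this value was -1.19 when keratinocyte progenitor 1 was left out, -0.17 when keratinocyte progenitor 2 or 3 was, -0.18 when limbal niche 1 was and -0.78 when limbal niche 3 was. The intervals of both genes include 0, and that of Slc2a1 reaches from almost 2 log2 units lower to almost 1 unit higher in limbal niche.

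Ldha was the only one of the 4 with a higher mean in limbal niche. The means were 740 ± 311 FPKM for keratinocyte progenitors and 1445 ± 734 FPKM for limbal niche (SD, n = 3 for both). The log2 fold change was 0.88 (95% interval -0.33 to 2.08; limma adjusted p = 0.793; exact two-sided permutation p = 0.2). It was 1.39 without limbal niche 1 and 0.54 without limbal niche 2, and neither fit called it. The difference between the group means was smaller than the SD within limbal niche.

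When both libraries numbered 1 were left out, 3 of the 4 genes passed the test, 2 lower and 1 higher in limbal niche, where 14.9% of all genes tested did (7.75% lower and 7.17% higher). These 2 libraries were left out because earlier results had shown that they stand apart from their groups, a choice that favours calls, and the keratinocyte progenitor side is then the pair with a correlation of 0.995. In this fit, with 2 libraries per group, the log2 fold change was -2.16 for Vegfa (limma adjusted p = 0.0131), -0.86 for Slc2a1 (limma adjusted p = 0.0488) and 1.71 for Ldha (limma adjusted p = 0.0158). For Hif1a it was -0.97 (limma adjusted p = 0.0779). With keratinocyte progenitors 2 and 3 counted as 1 library instead, the values were -0.98 for Vegfa, -0.17 for Slc2a1, 0.72 for Ldha and -0.55 for Hif1a, and the limma adjusted p was 1.00 for each. The part of the libraries' overall grouping in these results was not tested.

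**Figure D5:**
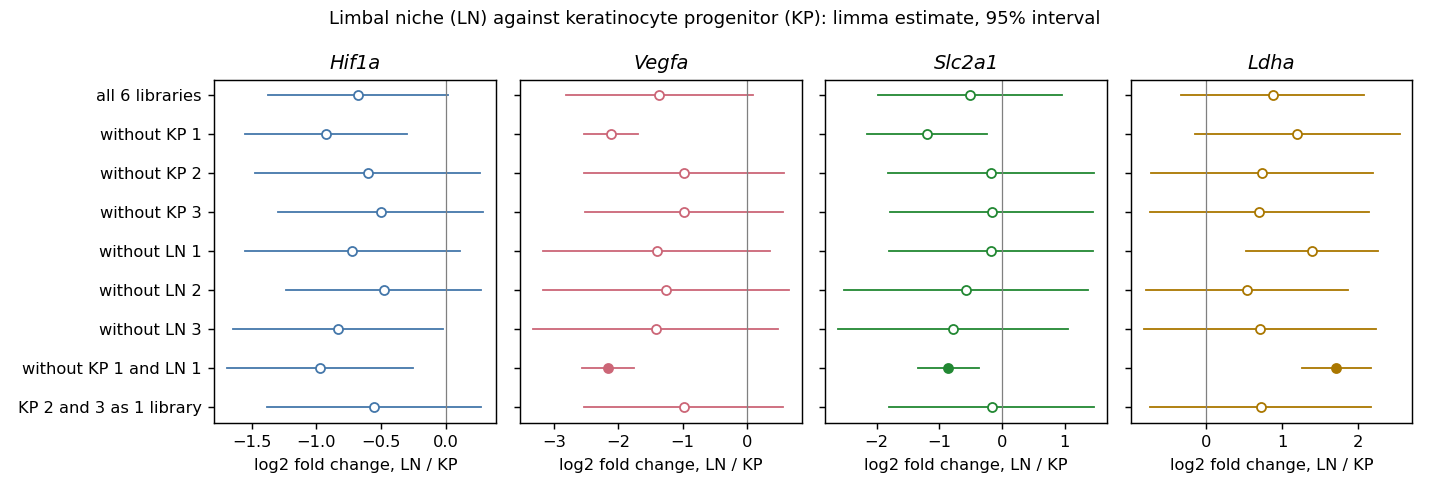
Log2 fold change of limbal niche (LN) over keratinocyte progenitors (KP) with its 95% interval from limma (horizontal axis) for each gene and set of libraries (vertical axis); filled points have an adjusted p under 0.05. The signs of Hif1a, Vegfa and Slc2a1 stay negative and that of Ldha positive in the sets drawn, and points are filled only without KP 1 and LN 1.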

How the data were processed

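The authors deposited 1 table of FPKM values with 1 column per library, per the labels; per the submitters' processing notes, FastQC, Trim Galore and DESeq2 were used. The aligner, counter, build and strand setting were not given in the sources used here. Groups and replicate numbers came from the sample titles, and columns were matched by the names in the descriptions. The 4 genes were chosen by name and not by their values, but earlier results of these data were known when they and all lists were chosen. The FPKM values are whole reads over a whole gene length and library total at full precision, so reads were recovered for 20159 of 20159 genes (relative tolerance 1e-12), with gene lengths of 3985, 3546, 2592 and 1600 bases for Hif1a, Vegfa, Slc2a1 and Ldha; a divisor shared by all reads of a gene would make them too small. They sum to 99.3% to 99.4% of the totals.

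Groups were tested with limma 3.58.1 (R 4.3.3), fitted to log2(FPKM + 1) with group as the only term, a variance trend and Benjamini-Hochberg adjustment over the 12085 genes averaging 1 FPKM or more. A fold change on this scale understates changes of low genes. The scripts were tested on simulated data. The rule for names was the 4 genes, members of 11 pathway and marker lists, and the gene most like each of the 4. Since 0 identifiers were paired with symbols among 47357 reference genes, the lists (oxygen sensors, glycolysis, other HIF targets, VEGF genes, cell type markers) were not examined and 2 identifiers are given for likeness. Alternatives were other pseudocounts, filters, scalings and variance settings, library weights, a replicate block, limma-voom and left-out libraries.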

Additional observations from a re-analysis of the deposited data

How the results depend on the processing

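For the 4 genes, 73 of 76 alternative log2 fold changes had the same sign and the same call, 3 were called in addition and 0 changed sign. The 3 were Vegfa (-2.16), Slc2a1 (-0.86) and Ldha (1.71) without both libraries numbered 1, where 1804 genes were called, against 0 with all libraries. Without a filter on low values 11 genes were called, for which the cause was not tested. With single libraries left out, 0 to 2 genes were called, the 2 without limbal niche 3. Over these fits the log2 fold change ran from -0.93 to -0.48 for Hif1a, -2.12 to -0.98 for Vegfa, -1.19 to -0.17 for Slc2a1 and 0.54 to 1.39 for Ldha. The adjusted p of the 4 genes ran up to 1.00. With library weights the log2 fold change was -2.08 for Vegfa (95% interval -2.91 to -1.26), -0.95 for Slc2a1 (-1.79 to -0.11), 1.44 for Ldha (0.76 to 2.11) and -0.87 for Hif1a (-1.43 to -0.32). Their adjusted p were the lowest with all 6 libraries, from 0.0504 (Vegfa) to 0.127 (Slc2a1), and none was called. The weights were estimated from these same data. For all 4 genes the weighted value lay nearer the fit without both libraries numbered 1 than the unweighted fit of all 6.

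With all libraries 707 genes had an unadjusted p under 0.05, against 3693 with library weights, 4479 without both libraries numbered 1, 199 with keratinocyte progenitors 2 and 3 counted as 1 (added after seeing the data), and 182 (without keratinocyte progenitor 3) to 1884 (without keratinocyte progenitor 1) with 1 library left out. With a replicate block there were 328, and 0 were called. No label pairs same-numbered libraries. Their deviations from group means (correlations -0.48, -0.35 and -0.25) cannot decide it, as both numbered 1 leaned to the other label. Relative to the median of all genes (-0.06, or -0.12 rescaled without the 50 most abundant genes and 0.01 with median-of-ratios scaling), the 4 directions were the same under each scaling.

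The share of library pairs in which 2 genes differed in the same direction was 26.7% for Slc2a1 and Ldha, 40% with keratinocyte progenitors 2 and 3 counted as 1, and 66.7% without both, a reversal. Over the pairs beyond counting error (added after seeing the data) the shares moved by less than 10 percentage points with all 6 libraries. Without both (added after seeing the data) the share was 50% for Hif1a and Slc2a1 and for Hif1a and Ldha, 66.7% for Vegfa and Slc2a1 and 33.3% for Vegfa and Ldha, against 80%, 20%, 86.7% and 13.3%. Beyond counting error these 4 shares without both were 60%, 40%, 75% and 25%, and that of Slc2a1 and Ldha was again 66.7%. With 1 library left out, the ranges were 90% to 100% for Hif1a and Vegfa, 70% to 90% for Hif1a and Slc2a1, 10% to 30% for Hif1a and Ldha, 80% to 100% for Vegfa and Slc2a1, 0% to 20% for Vegfa and Ldha, 20% to 40% for Slc2a1 and Ldha. The planned correlation coefficients were not given, for the reasons stated with the counts, and the list comparisons were not run.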
